A study of Gasterosteus aculeatus with 60 samples.

Results

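Transducin and the photoreceptor phosphodiesterase PDE6 were followed in the brain of male threespined sticklebacks through 8 of their subunit genes. They were chosen by name and gene identifier in the count table, of whose genes 17536 were high enough to be tested over all 60 libraries. The rod forms were gnat1, pde6a and pde6g, and the cone forms gnat2, gnb3b, gngt2b, pde6c and pde6h (1 of 2). The study's own tables list these genes for differences on these same libraries, so the challenge comparisons below are not independent evidence of a response. Adult males of a freshwater population from Putah Creek held nesting territories and met for 5 min either a smaller male confined in a flask (challenged) or an empty flask (control). Diencephalon and telencephalon of each of 30 males were sequenced separately as poly-A RNA, giving 60 libraries in 12 groups of 5: challenged and control males 30, 60 and 120 min after the flask was introduced, in each region. Fish keep the number that the sample labels give them, and both regions of a male carry the same number.

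In photoreceptor cells, light-activated opsin switches on transducin, a G protein made of an alpha, a beta and a gamma subunit. Its alpha subunit then releases the inhibitory subunit of PDE6, the catalytic subunits break down cyclic GMP, and the cation channels that cyclic GMP holds open close. Rods and cones use separate genes for most of these parts, and in fishes such cells lie in the retina and in the pineal organ, which sits above the diencephalon.

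The alpha subunits are gnat1 of rods (ENSGACG00000012301, groupXVII from 14591379 to 14594859, minus strand) and gnat2 of cones (ENSGACG00000007705, groupXII from 10028631 to 10034853, plus strand). The cone beta subunit gnb3b (ENSGACG00000009422) lies on groupX from 14546539 to 14552132, minus strand, and the cone gamma subunit gngt2b (ENSGACG00000003412) on groupV from 3481760 to 3482745, minus strand. The catalytic subunits of PDE6 are pde6a of rods (ENSGACG00000016811, groupIV from 4184397 to 4203182, minus strand) and pde6c of cones (ENSGACG00000006726, groupV from 8799194 to 8807124, plus strand). The inhibitory subunits are pde6g of rods (ENSGACG00000014432, scaffold_112 from 198492 to 200652, minus strand) and pde6h (1 of 2) of cones (ENSGACG00000015964, groupIX from 580825 to 582033, plus strand). A second copy, pde6h (2 of 2), begins 3201 bases further along groupIX on the other strand, and counts of these near copies are uncertain where reads could match both. Positions are those of the stickleback assembly in the study's annotation.

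Levels are given as cpm, the count scaled to a common library size of reads on listed genes. Library totals ranged between 17705327 and 55299804 reads, so that 3 reads were worth between 0.0542 and 0.169 cpm. Transcript lengths were not at hand, and cpm of different genes were therefore not ranked against each other. By summed levels the regions matched their labels. The sum of 8 telencephalon genes was between 332.5 and 842 cpm in telencephalon libraries and between 51.7 and 118 cpm in diencephalon libraries. That of 6 diencephalon genes was between 58.7 and 88.9 cpm in diencephalon libraries and between 0.576 and 27.3 cpm in telencephalon libraries. Singly, 7 of the 8 telencephalon genes were called lower in diencephalon and 1 higher, by 2.59 on the log2 scale (edgeR adjusted p under 0.1). Of all 17536 genes tested, 6630 were called lower and 6157 higher. Pituitary hormone genes (6 genes, led by prl and cga) differed widely among diencephalons, between 0.366 and 4805 cpm summed, and were at most 7.71 cpm in telencephalons.

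Most reads of 7 of the 8 members lay in 3 libraries. The summed level of the 8 was 1529 cpm in the diencephalon and 719 cpm in the telencephalon of fish 35 (control, 60 min) and 807 cpm in the diencephalon of fish 19 (challenged, 120 min), while the highest of the other 57 libraries reached 85.7 cpm. The telencephalon of fish 19 was ordinary, at 4.55 cpm. These 3 libraries, singled out after their values were seen, held 36.4% of all pde6g reads of the 60 libraries, between 63.4% and 79.1% of the reads of gnat1, gnat2, gnb3b, gngt2b, pde6a and pde6c, and 85.5% of those of pde6h (1 of 2). Every member was higher in each of the 3 than in any other library.

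Other genes of eye tissue stood apart in the same libraries. Opsin kinases and arrestins (7 genes, led by arr3a and saga) summed to 373 to 652 cpm in the diencephalon of the 2 fish and 288 cpm in the telencephalon of fish 35, against at most 40.1 cpm in the other libraries. In those other libraries their medians were 6.97 cpm in diencephalon and 2.81 cpm in telencephalon. Retinal bipolar cell genes (7 genes) summed to 66.4 to 113 cpm in the 3 libraries, against at most 18.1 cpm elsewhere, and retinal pigment epithelium genes (9 genes) to 102 to 311 cpm, against at most 53.9 cpm elsewhere. Lens crystallins (4 genes) did not stand apart, at 0.749 to 0.965 cpm in the 3 libraries and up to 38.6 cpm in others. Their part in the results on the members was not tested. The main edgeR quasi-likelihood results are therefore given with all males and without fish 19 and 35. DESeq2 and edgeR's likelihood ratio test were run with all males only, and medians of rod to cone ratios cover all males. In whole tissue, fewer cells of a type and less RNA per cell cannot be told apart.

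**Figure D1:**
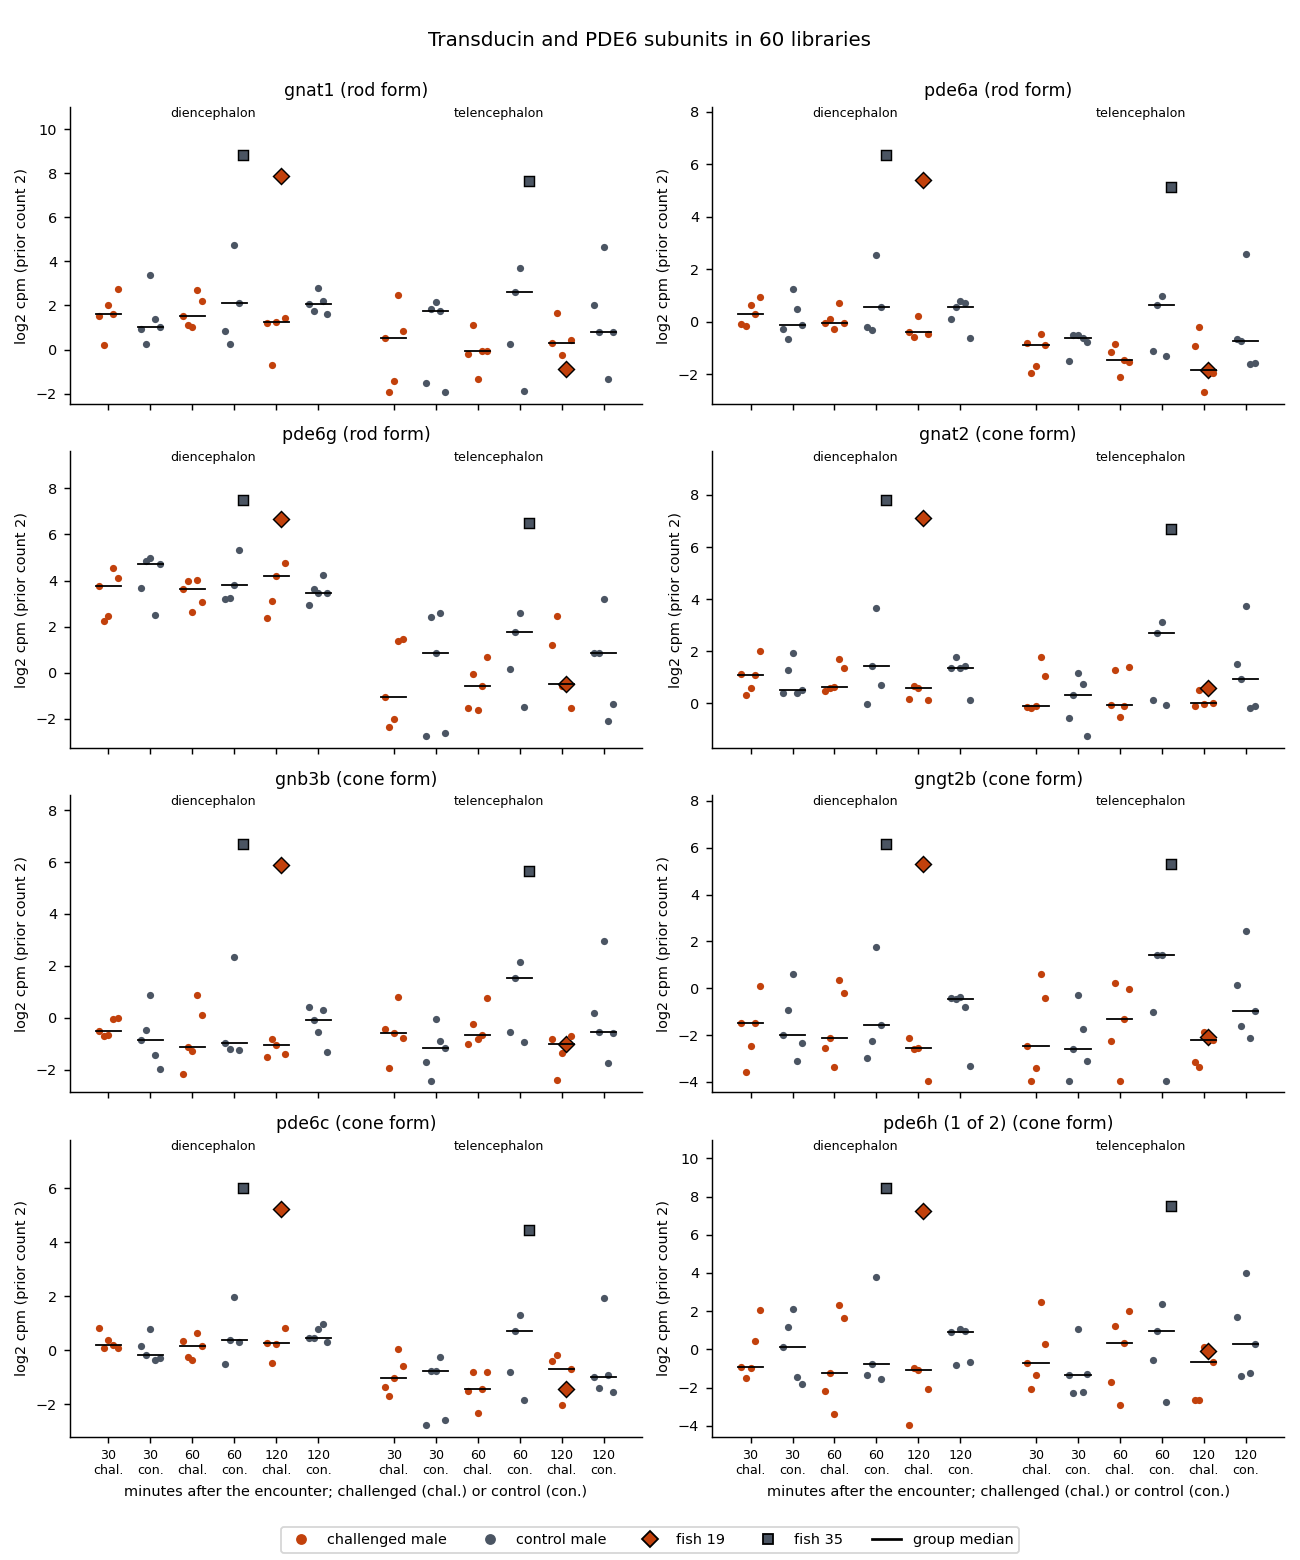
Level of each member in the 60 libraries, as log2 cpm (prior count 2), by region, time and treatment, 5 males a group. Points are libraries, lines are group medians, and diamonds and squares mark fish 19 and fish 35. Fish 35 is the highest of its group in both regions for every member, at 447 and 200.4 cpm of gnat1, and fish 19 only in diencephalon, at 234 cpm.

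Rod transducin was detected in all 60 libraries but mostly at a few cpm. Outside fish 19 and 35, gnat1 had a median of 2.80 cpm in diencephalon (range up to 26.7 cpm, n = 28) and 1.33 cpm in telencephalon (up to 24.8 cpm, n = 28). The 3 libraries that stood apart had 447, 234 and 200.4 cpm. Fish 15 (control, 60 min) came next in diencephalon, at 26.7 cpm, and fish 20 (control, 120 min) next in telencephalon, at 24.8 cpm. Cone transducin alpha, gnat2, followed the same fish, with medians of 1.55 cpm in diencephalon and 0.993 cpm in telencephalon and the highest values at 226, 140.2 and 104 cpm.

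The cone beta subunit was detected in every library, and the cone gamma subunit was near the limit of detection in many. Median gnb3b was 0.525 cpm in diencephalon and 0.565 cpm in telencephalon without fish 19 and 35, and gngt2b 0.178 and 0.223 cpm. Libraries without any gngt2b read numbered 1 in diencephalon and 4 in telencephalon, which allows up to 0.0654 to 0.127 cpm there. In the 3 libraries that stood apart the lowest values were 49.8 cpm for gnb3b and 39.2 cpm for gngt2b.

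The catalytic subunits were detected in every library. Without fish 19 and 35, pde6a averaged 1.25 ± 0.992 cpm in diencephalon (SD, n = 28; 0.561 to 5.82 cpm) and had a median of 0.472 cpm in telencephalon. Its cone counterpart pde6c averaged 1.25 ± 0.614 cpm in diencephalon (SD, n = 28) and had a median of 0.485 cpm in telencephalon. Both were at 21.99 cpm or more in the 3 libraries that stood apart.

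The inhibitory subunits of rods and cones did not behave alike. The rod form pde6g was present at 4.62 to 39.4 cpm in the 28 diencephalons other than those of fish 19 and 35, with no library near 0. The cone form pde6h (1 of 2) had a median of 0.486 cpm in the same libraries and 0 reads in the diencephalon of fish 1, which allows up to 0.122 cpm. In the diencephalons of fish 35 and 19, pde6g was at 183 and 102 cpm beside 351 and 153 cpm of pde6h (1 of 2). In the telencephalon of fish 35 these genes were at 89.1 and 180 cpm. Over all 30 telencephalons the log2 ratio of pde6g to pde6h (1 of 2) had a median of -0.37.

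Diencephalon was set against telencephalon of the same males to ask which subunits differ by region. Of the 8 members, 5 were called higher in diencephalon and none lower (edgeR quasi-likelihood test over 60 libraries, Benjamini-Hochberg adjusted p under 0.1), and 35.1% of all 17536 genes tested were called higher in diencephalon. The 5 were pde6g, pde6c, pde6a, gnat1 and gnat2. The median difference of the 8 was 1.26 on the log2 scale, beside -0.01 over all genes tested. Without fish 19 and 35, 3 of the 8 were called higher, pde6g, pde6c and pde6a, beside 33.8% of all genes. In control males alone only pde6g was, beside 31.0%. With all males and the fish as a block no call of a member changed, and the share of all genes was not counted in that fit. The differences of all members but pde6g were smaller in that fit, at 1.05 for gnat1 and 0.58 for gnat2.

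The rod inhibitory subunit had the largest difference of the 8. pde6g averaged 23.4 ± 35.0 cpm in diencephalon and 4.82 cpm in telencephalon over all 30 males, and 14.9 ± 8.92 cpm in diencephalon (SD, n = 28) against 1.96 cpm in telencephalon without fish 19 and 35. Its log2 difference was 3.00 ± 0.44 (SE), edgeR adjusted p = 3.00e-08, and 3.01 ± 0.37 (SE) without the 2 fish, edgeR adjusted p = 8.15e-10. It was higher in diencephalon in 29 of 30 males. The exception was fish 30 (control, 30 min), with 5.55 cpm in diencephalon and 5.97 cpm in telencephalon.

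For pde6g by group, challenged males at 30 min had 23.5, 17.0, 13.5, 5.39 and 4.62 cpm in diencephalon, and control males 31.3, 28.8, 26.2, 12.9 and 5.55 cpm. In the telencephalon of the same males the values were 2.68, 2.5, 0.414, 0.183 and 0.131 cpm in challenged males, and 5.97, 5.34, 1.76, 0.10 and 0.0820 cpm in control males. Telencephalic pde6g thus ran across more than a 10-fold range within each of these 30 min groups, while each diencephalon stayed above 4 cpm. The range was narrower in challenged males at 60 min, at 0.265 to 1.52 cpm in telencephalon. The lowest value, 0.0820 cpm in fish 5, was below the 0.123 cpm that 3 reads were worth there, so the size of such ranges includes counting error.

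The catalytic subunits differed by region to a smaller degree. pde6c was higher in diencephalon in 26 of 30 males, by 1.63 ± 0.41 on the log2 scale (SE), edgeR adjusted p = 0.000440, and by 0.98 ± 0.25 without fish 19 and 35, edgeR adjusted p = 0.000477. pde6a was higher in 26 of 30 males as well, by 1.6 ± 0.45 (SE), edgeR adjusted p = 0.00142, and by 0.97 ± 0.26 without the 2 fish, edgeR adjusted p = 0.00116. In this respect the rod and the cone catalytic subunit differed between the regions by nearly the same amount.

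The transducin alpha subunits were called only with fish 19 in the data. gnat1 was higher by 1.46 ± 0.54 on the log2 scale (SE), edgeR adjusted p = 0.0152, and by 0.59 ± 0.38 without the 2 fish, edgeR adjusted p = 0.167. gnat2 was higher by 1.07 ± 0.46 (SE), edgeR adjusted p = 0.0381, and by 0.17 ± 0.27 without them, edgeR adjusted p = 0.605. Without fish 19 alone they stood at 0.66 and 0.33, both past the threshold no longer. The cone genes gnb3b, gngt2b and pde6h (1 of 2) did not pass the test, at 0.83, 0.91 and 1.04 with all males and at -0.23, -0.38 and -0.09 without the 2 fish.

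**Figure D2:**
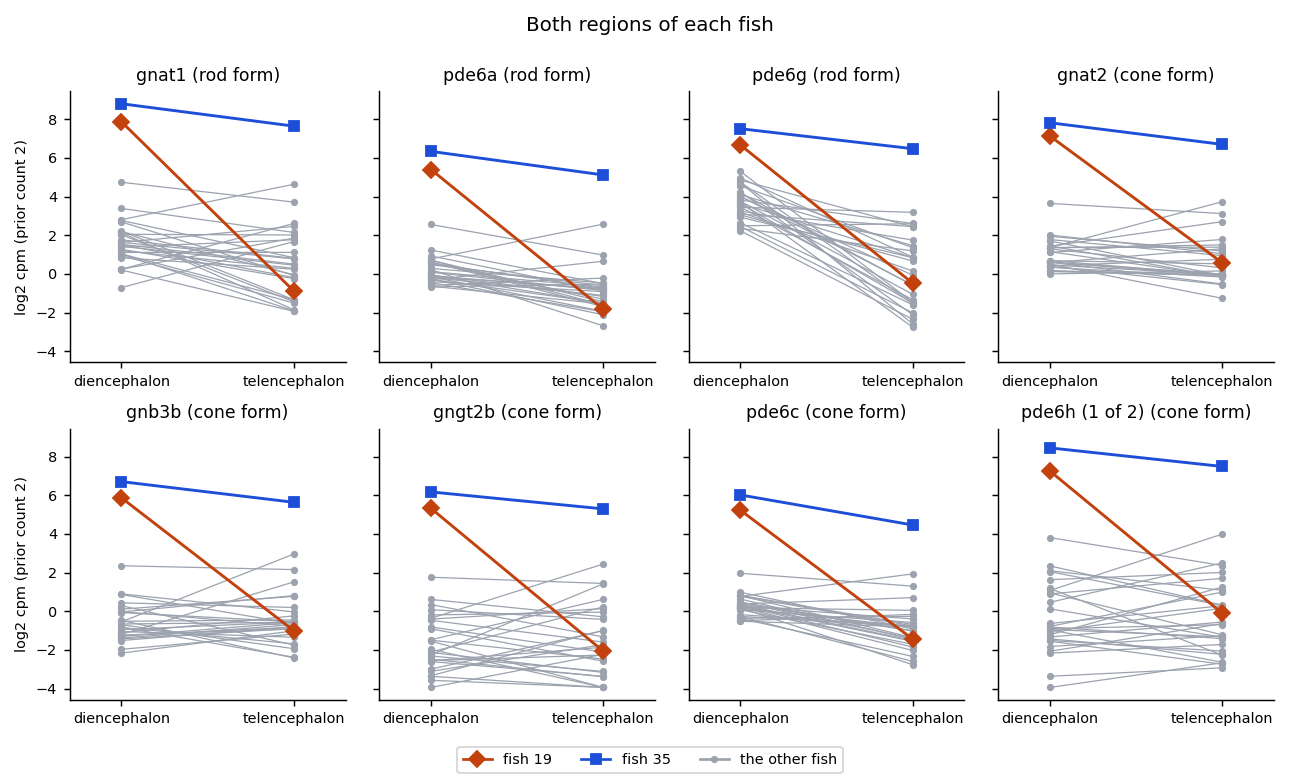
Each male's diencephalon (left) joined to its telencephalon (right) for the 8 members, as log2 cpm (prior count 2), with fish 19 and 35 in colour. Lines of pde6g fall to the right in 29 of 30 males, those of pde6a and pde6c in 26, and those of pde6h (1 of 2) in 15. Fish 35 is high on both sides and fish 19 only on the left.

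Expressed relative to gnat1 of the same library, some members had other proportions in the 3 libraries that stood apart than in the other diencephalons, and gnat2 did not. The ratio of gnat2 to gnat1 was 0.506 to 0.599 in the 3 libraries and 0.586 at the median of the other 28 diencephalons, 13 of them above and 11 below the 3. In the other 29 telencephalons the gnat2 ratio was higher, with a median of 1.07, 23 of them above and 3 below the 3. The ratio of pde6g to gnat1 was 0.408 to 0.444 in the 3 libraries, and had a median of 4.19 (0.527 to 25.7) in the other 28 diencephalons, all of them above the 3. In the other 29 telencephalons its median was 0.6, 20 of them above and 7 below the 3. For pde6a the ratio to gnat1 was 0.173 to 0.181 in the 3 libraries, with a median of 0.355 in the other diencephalons, again all above the 3. Its median in the other 29 telencephalons was 0.312, 20 of them above and 7 below the 3.

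The cone inhibitory subunit went the other way. The ratio of pde6h (1 of 2) to gnat1 was 0.653 to 0.898 in the 3 libraries. It had a median of 0.228 in the other diencephalons, of which 24 of 28 lay below the 3. In the other 29 telencephalons its median was 0.637, 10 of them above and 15 below the 3. For gnb3b the ratio was 0.234 to 0.249 in the 3 libraries and 0.190 at the median of the other diencephalons, 17 of them below and 11 above. In the other telencephalons the gnb3b ratio had a median of 0.44, 25 of them above and 4 below. For pde6c, 25 of the other 28 diencephalons and 25 of the other 29 telencephalons lay above the 3. Most diencephalons thus held more pde6g, pde6a and pde6c per gnat1 read and less pde6h (1 of 2) than the libraries that stood apart. More pde6g, pde6a and pde6c per gnat1 read was not particular to diencephalon, as most telencephalons also lay above the 3. Levels of gnat1 itself were among those by which the 3 were singled out.

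**Figure D3:**
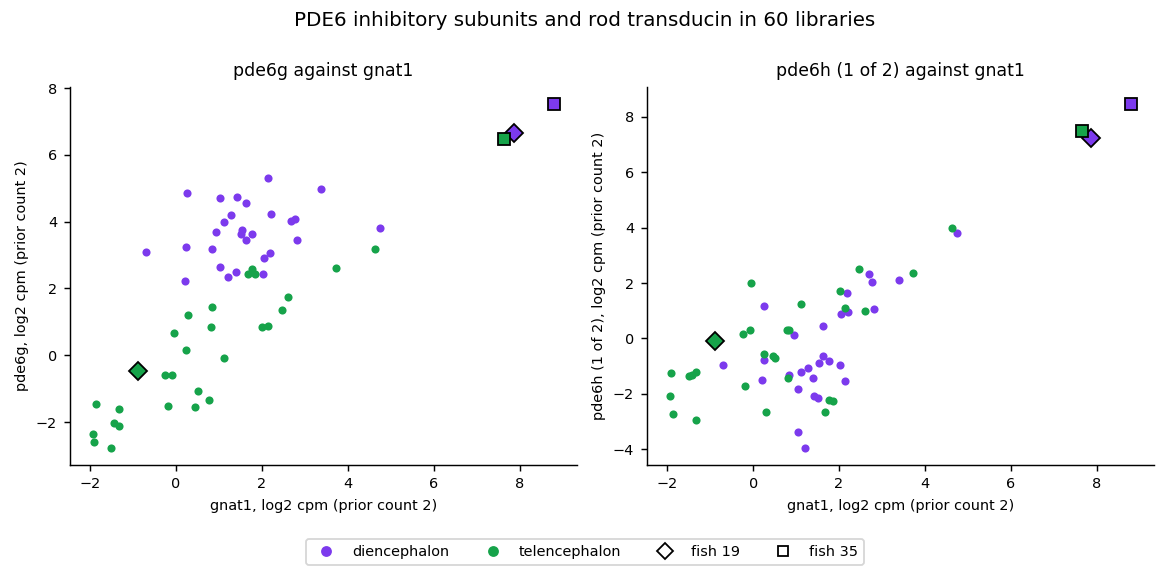
Level of the rod inhibitory subunit pde6g (left) and the cone inhibitory subunit pde6h (1 of 2) (right) against gnat1 in the 60 libraries, all as log2 cpm (prior count 2). Diencephalon and telencephalon are in different colours, and diamonds and squares mark fish 19 and 35. Outside the 3 libraries that stood apart, the median ratio of pde6g to gnat1 was 4.19 in diencephalon and 0.6 in telencephalon. For pde6h (1 of 2) these medians were 0.228 and 0.637. Levels of pde6g overlap between the regions.

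The rod form was compared with its cone counterpart within each library, as a difference of 2 log2 cpm values that describes libraries and does not rank the genes. For the transducin alpha subunits, gnat1 over gnat2, the median was 0.76 in diencephalon and -0.05 in telencephalon, and the ratio was higher in diencephalon in 24 of 30 males. For the catalytic subunits, pde6a over pde6c, the medians were 0.04 and -0.05, and 13 of 30 males were higher in diencephalon. For the inhibitory subunits, pde6g over pde6h (1 of 2), the medians were 3.98 and -0.37, and 25 of 30 males were higher in diencephalon.

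Within the 3 libraries that stood apart the plain cpm ratios were close to each other, at 1.98, 1.93 and 1.67 for gnat1 over gnat2, 1.25, 1.58 and 1.13 for pde6a over pde6c, and 0.521, 0.495 and 0.666 for pde6g over pde6h (1 of 2), for fish 35 diencephalon, fish 35 telencephalon and fish 19 diencephalon in that order. The diencephalons of fish 35 and 19 had the lowest inhibitory ratios of the 30, at -0.94 and -0.59 on the log2 scale, and fish 15 the next, at 0.01. In the other diencephalons the ratio of rod to cone inhibitory subunit ran up to 6.85.

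Group medians of the inhibitory ratio in diencephalon were 3.74 in challenged and 3.67 in control males at 30 min, 5.20 and 4.04 at 60 min, and 5.24 and 3.30 at 120 min. Within each of these groups the ratios spread over at least 2 log2 units, and the groups overlapped at each time.

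**Figure D4:**
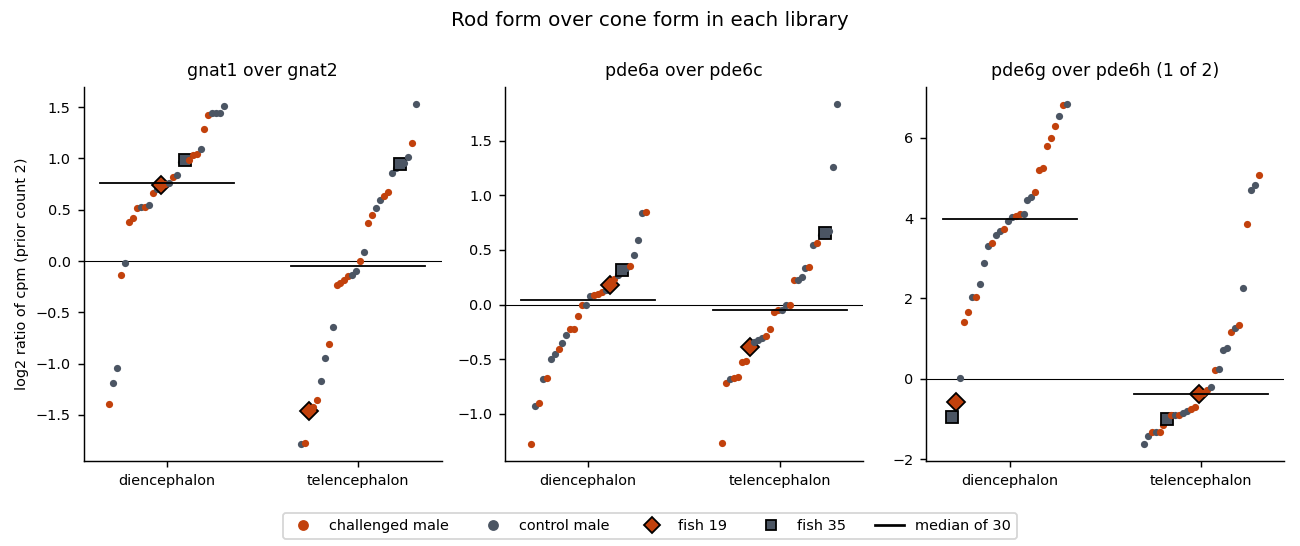
Rod form over cone form in each library, as the log2 ratio of cpm (prior count 2), libraries sorted within each region. Lines are medians of 30 libraries: 0.76 and -0.05 for gnat1 over gnat2, 0.04 and -0.05 for pde6a over pde6c, and 3.98 and -0.37 for pde6g over pde6h (1 of 2), diencephalon first. Fish 19 and 35 lie at the low end of the diencephalic inhibitory ratio.

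Levels of the members went together over libraries, with pde6g apart in diencephalon. Over the 28 diencephalons without fish 19 and 35, Spearman's correlation of log2 cpm between the other 7 members was 0.39 to 0.87 with a median of 0.64 (21 pairs), and that of pde6g with each of them was 0.19 to 0.36. Over the 28 telencephalons, the correlation of pde6g with the others had a median of 0.79, and the other pairs one of 0.68. Libraries share depth and dissection with each other, so these values describe the libraries only.

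Across the 2 regions of a male, pde6h (1 of 2) levels were alike in order (Spearman's correlation 0.65 over 28 males) and pde6g levels were not (-0.06). Outside the members, the genes most like gnat1 over all 60 libraries were gngt1, the rod transducin gamma subunit, with a Spearman correlation of 0.95, guk1b, a guanylate kinase, with 0.91, and the cyclic nucleotide gated channel gene CNGA1 (2 of 2), with 0.90, among 17160 genes that passed the filter in both regions. Those most like gnat2 were ENSGACG00000002791, which the tables used here do not name, with 0.88, CKMT2 (2 of 2), a mitochondrial creatine kinase, with 0.87, and pde6b, a rod catalytic subunit, with 0.87.

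Challenged males were set against control males at each time to ask whether the brief encounter moved the members. At 60 min all 8 members had negative log2 fold changes in both regions, and at 120 min positive ones in diencephalon and negative ones in telencephalon. At 30 min they lay between -0.73 and 0.25 in diencephalon and between -1.21 and 1.29 in telencephalon. No member passed the edgeR quasi-likelihood test in any of the 6 comparisons after adjustment over all of them (0 of 8 in each, beside 0% of all 17448 genes tested in diencephalon and 0% of 17247 in telencephalon). The size of the 60 min values rested largely on fish 35, without which they stayed negative, and the sign of the diencephalic 120 min values on fish 19 for all members but pde6g.

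In diencephalon at 60 min, gnat1 was at 6.38, 4.49, 2.78, 2.1 and 1.98 cpm in challenged males, against 447, 26.7, 4.32, 1.72 and 1.12 cpm in control males. The groups overlapped, and the 2 highest males were both controls, fish 35 and fish 15. The log2 fold change of gnat1 was -4.73 ± 1.46 (SE), edgeR adjusted p = 0.549, and -1.24 ± 0.72 without fish 19 and 35, edgeR adjusted p = 0.815. In that setting median gnat1 was 2.78 cpm in challenged and 3.02 cpm in control males. Fish 15 was then the only control above the challenged males, and leaving it out as well was not tested. With all males the fold changes of the 8 members ran between -5.31 for pde6h (1 of 2) and -2.11 for pde6g, with a median of -4.65 beside -0.02 over all genes tested.

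All 8 were at an unadjusted p under 0.05 and lower, beside 6.61% of all genes. No member had groups that did not overlap, beside 1.47% of all genes. When fish 19 and 35 were left out the median was -1.06, and 2 of 8, gnat2 and pde6a, were at an unadjusted p under 0.05, beside 7.10% of all genes. DESeq2 called 4 of 8 with all males, gnat1, gnat2, gnb3b and pde6a, beside 0.329% of all genes, and in each comparison it gave a p-value for 7 of the 8 only. Retinal pigment epithelium genes had a median log2 fold change of -1.57 in the same comparison (9 genes, 7 at an unadjusted p under 0.05) and bipolar cell genes one of -2.34 (7 genes, 5 at that level), and -0.31 and 0.03 over the 8 and 4 still tested without fish 19 and 35. Pituitary genes had a median of 2.93 (6 genes, 0 at that level). Their part in the result was not tested.

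In telencephalon at 60 min, gnat1 was at 2.1, 0.904, 0.878, 0.811 and 0.332 cpm in challenged males, against 200.4, 13.1, 6.04, 1.12 and 0.211 cpm in control males. Fish 35, 15 and 8 gave the 3 highest values, and the lowest value was also a control, fish 27. Its log2 fold change was -5.39 ± 1.39 (SE), edgeR adjusted p = 0.534, and -2.31 ± 1.11 without fish 19 and 35, edgeR adjusted p = 0.765.

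The cone alpha subunit gnat2 was at 2.54, 2.4, 0.907, 0.878 and 0.630 cpm in challenged males, against 104, 8.63, 6.45, 1.05 and 0.887 cpm in control males, a log2 fold change of -4.01 ± 1.00 (SE), edgeR adjusted p = 0.534. Over the 8 members the median was -4.33 beside -0.02 over all genes tested. All 8 were lower at an unadjusted p under 0.05, beside 5.22% of all genes, and 0 of 8 had groups that did not overlap, beside 1.29%. Leaving out fish 19 and 35 gave a median of -1.59, with 3 of 8, gnat1, pde6a and pde6c, at an unadjusted p under 0.05, beside 3.55%.

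Other tools called some of these with all males. DESeq2 called 6 of 8 lower, gnat1, gnat2, gnb3b, pde6a, pde6c and pde6g, beside 0.379% of all genes, and edgeR's likelihood ratio test with tagwise dispersion called gnat2 and pde6a, beside 0.0870%. Retinal pigment epithelium genes had a median log2 fold change of -1.64 in telencephalon at 60 min (9 genes, 6 at an unadjusted p under 0.05) and of -0.48 without fish 19 and 35 (0 of 9), and bipolar cell genes of -1.43 and -0.54 (3 genes tested). Lens crystallins had -2.76 over 4 genes (3 at an unadjusted p under 0.05) and -3.05 without the 2 fish (4 of 4). They were highest in the telencephalon of fish 15, at 38.6 cpm summed. Their part in the result was not tested.

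At 120 min in diencephalon, pde6h (1 of 2) was at 153, 0.448, 0.418, 0.173 and 0 cpm in challenged males, against 2.04, 1.86, 1.80, 0.579 and 0.502 cpm in control males. Fish 19 was the highest and the other 4 challenged males the lowest of the 10. Its log2 fold change was 4.5 ± 1.81 (SE), edgeR adjusted p = 0.664, with all males and -2.43 ± 1.39 without fish 19 and 35, edgeR adjusted p = 0.815. The sign thus depended on a single male.

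gnat1 behaved alike, at 234, 2.62, 2.35, 2.24 and 0.547 cpm in challenged males, against 6.93, 4.58, 4.07, 3.32 and 3.03 cpm in control males. Its log2 fold change was 3.46 ± 1.39 (SE), edgeR adjusted p = 0.662, and -1.17 ± 0.76 without fish 19 and 35, edgeR adjusted p = 0.844. Over the 8 members the median was 3.53 with all males and -1.04 without the 2 fish, beside 0.00 over all genes tested in both cases.

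With all males 7 of 8 members were higher at an unadjusted p under 0.05, beside 3.54% of all genes, and 0 of 8 had groups that did not overlap, beside 0.676%. Without fish 19 and 35, 7 of 8 had a negative log2 fold change, pde6g being the exception at 0.28, and 0 of 8 were lower at an unadjusted p under 0.05, beside 2.85% of all genes. In that setting the groups did not overlap for 2 of 8, gnat1 and pde6h (1 of 2), beside 1.71% of all genes. Fish 19 was left out because of its values of these same members. The count of members is therefore not like the share of all genes, and no conclusion is drawn from it. Pituitary genes had a median log2 fold change of -6.86 in this comparison and -7.10 without the 2 fish (6 genes, 5 at an unadjusted p under 0.05 in both), and summed to at most 1.98 cpm in challenged males, against up to 1001 cpm in control males. Retinal bipolar cell genes had 1.51 with all males and -0.09 without the 2 fish. Their part in the results was not tested.

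At 120 min in telencephalon, where fish 19 was ordinary, challenged males had 3.12, 1.3, 1.16, 0.778 and 0.476 cpm of gnat1, against 24.8, 3.97, 1.68, 1.65 and 0.331 cpm in control males. Fish 20 was the highest control for every member. The log2 fold change of gnat1 was -2.21 ± 1.24 (SE), edgeR adjusted p = 0.804, and -0.44 without fish 20.

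The largest fold change there was that of gngt2b, at 0.209, 0.173, 0.149, 0.0463 and 0.0318 cpm in challenged males, against 5.37, 1.04, 0.440, 0.266 and 0.166 cpm in control males. It came to -3.48 ± 1.46 (SE), edgeR adjusted p = 0.679, and to -1.87 without fish 20. Each challenged value of gngt2b rested on 7 reads or fewer.

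Over the 8 members the telencephalic median at 120 min was -2.15 beside 0.01 over all genes tested. At an unadjusted p under 0.05, 3 of 8 were lower, gnb3b, gngt2b and pde6a, beside 1.48% of all genes, and 0 of 8 had groups that did not overlap, beside 0.539%. Fish 35 was not in this comparison, and fish 19 was not high here. Without fish 19 and 35, 5 of 8 were lower at that level, beside 1.76%, with edgeR adjusted p-values of 0.689 or more. Both counts include control fish 20. Leaving out fish 20 gave -0.50 for gnat2, -0.66 for gnb3b, -1.87 for gngt2b, -0.22 for pde6a and -1.17 for pde6h (1 of 2). It turned pde6c to 0.46 and pde6g to 0.89. DESeq2 called 0 of 7 and the likelihood ratio test 0 of 8.

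At 30 min none of the libraries that stood apart was in the comparison. gnat1 in diencephalon was at 6.73, 4.00, 3.03, 2.82 and 1.08 cpm in challenged males, against 10.4, 2.55, 1.98, 1.86 and 1.12 cpm in control males, and the groups overlapped over most of their range. The median log2 fold change of the 8 members was -0.02 in diencephalon and 0.34 in telencephalon. At an unadjusted p under 0.05 there were 0 of 8 in both regions, beside 3.28% of all genes in diencephalon and 4.14% in telencephalon, and 0 of 8 without fish 19 and 35, beside 3.32% and 4.54%. DESeq2 called 0 of 7 and the likelihood ratio test 0 of 8. Pituitary genes had a median log2 fold change of -5.75 in diencephalon at 30 min (6 genes, 5 at an unadjusted p under 0.05). They summed to 4805 cpm in control fish 12, up to 22.6 cpm in the other controls and up to 230 cpm in challenged males. Their part in these values was not tested.

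**Figure D5:**
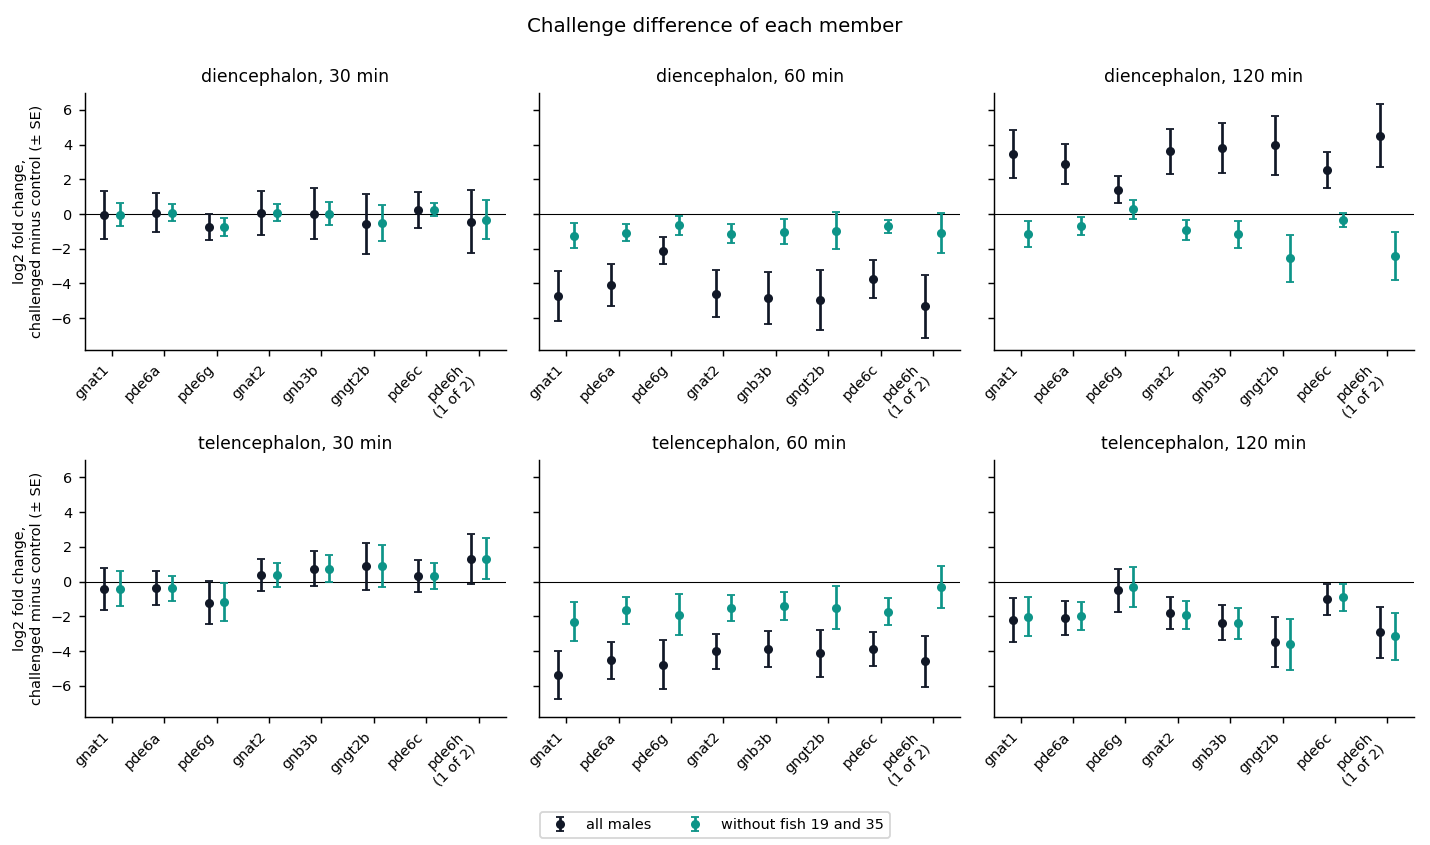
Log2 fold change of each member, challenged minus control, with its standard error, in the 6 comparisons of region and time, with all males (dark) and without fish 19 and 35 (green). At 60 min the median of the 8 was -4.65 in diencephalon and -4.33 in telencephalon with all males, and -1.06 and -1.59 without the 2 fish. At 120 min in diencephalon it was 3.53 with all males and -1.04 without them.

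A test of the 3 times jointly was made within each region. None of the 8 members passed in edgeR's quasi-likelihood test (0 of 8 in both regions, beside 0% of all genes, with and without fish 19 and 35). At an unadjusted p under 0.05 there were 8 of 8 in each region with all males, beside 6.85% of all genes in diencephalon and 7.22% in telencephalon. In the absence of the 2 fish there were 0 of 8 in diencephalon, beside 8.25%, and 3 of 8 in telencephalon, gnat2, gnb3b and pde6a, beside 5.72%. With all males, the likelihood ratio test called 5 of 8 in both regions, gnat1, gnat2, gnb3b, pde6a and pde6c. Beside these, it called 0.470% of all genes in diencephalon and 0.562% in telencephalon. DESeq2, also with all males, called gnat2 and pde6a in diencephalon, beside 0.225%. In telencephalon it called the same 5 as the likelihood ratio test, beside 0.484%.

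Whether the challenge difference itself differed between the regions was tested at each time. At 120 min the difference in diencephalon minus that in telencephalon was between 1.94 for pde6g and 7.43 for gngt2b on the log2 scale with all males, and between 0.54 and 1.27 without fish 19 and 35. With the fish as a block it was between 1.13 and 4.29. No member was called at 30, 60 or 120 min in any of these fits. The edgeR adjusted p was 0.892 or more, lowest for gngt2b at 120 min with the fish as a block. With all males and without fish 19 and 35, 0% of all genes were called. At an unadjusted p under 0.05 there were 0 of 8 at 30 min, beside 1.28% of all genes, 0 of 8 at 60 min, beside 3.32%, and 7 of 8 at 120 min, beside 1.45%. These counts came from all males in a fit that took a male's 2 regions as unrelated. With the fish as a block, the 120 min value was 1.78 ± 1.44 (SE) for gnat1 and 1.94 ± 1.03 for gnat2. The largest there were gngt2b at 4.29 ± 1.82 and pde6h (1 of 2) at 3.79 ± 1.64. These were the only members at an unadjusted edgeR p under 0.05 in that fit, and the share of all genes was not counted. Without fish 19 and 35 the largest was pde6a, at 1.27 ± 0.93. No conclusion is therefore drawn from the 7 of 8. The opposite signs at 120 min are thus not shown to be a difference between the regions.

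The other transducin and PDE6 genes had values of the same sign at 60 min. For gngt1, the rod gamma subunit, the log2 fold change was -4.43 in diencephalon and -4.53 in telencephalon, and for pde6b, the other rod catalytic subunit, -5.46 and -4.76. The further cone inhibitory gene PDE6H (1 of 3) had -5.53 and -4.43, and pde6h (2 of 2) had -3.63 in diencephalon, while it did not pass the filter in telencephalon. None passed the adjusted test. Without fish 19 and 35 the values in diencephalon and telencephalon were -1.03 and -1.75 for gngt1 and -1.33 and -1.99 for pde6b. They were -1.48 and -1.53 for PDE6H (1 of 3), and pde6h (2 of 2) passed the filter in neither region. None passed the adjusted test in that setting either.

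Of these, gngt1 had a median of 2.03 cpm in diencephalon and 1.48 cpm in telencephalon without fish 19 and 35, and PDE6H (1 of 3) 0.453 and 0.418 cpm. pde6b was at 0.280 and 0.162 cpm, and pde6h (2 of 2) at 0.151 and 0.116 cpm, where single reads decide a value. All 4 were called higher in diencephalon with all males, with log2 differences of 1.01 to 1.39, beside 35.1% of all genes. With the fish as a block PDE6H (1 of 3) was no longer called (edgeR adjusted p = 0.110, against 0.0880 without the block). None of the 3 that still passed the filter was called without fish 19 and 35, beside 33.8% of all genes.

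Further along the cascade no gene of these lists was called in a challenge comparison by edgeR's quasi-likelihood test, the only test run on the lists. In diencephalon at 60 min the median log2 fold change was -4.30 for opsin kinases and arrestins (7 genes) and -3.97 for cyclases and calcium regulators (7 genes, led by GUCY2D (1 of 2) and rcvrna). It was -1.62 for channels and exchangers (6 genes, led by cnga3a and cngb1a) and -2.59 for partners of transducin and PDE6 (6 genes, led by gnb5b). All genes of these lists had negative log2 fold changes there, as did 9923 of all 17448 genes tested.

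With fish 19 and 35 left out, fewer of these genes passed the filter and the medians came closer to 0: -1.16 for 4 kinases and arrestins, -0.09 for 3 cyclases and calcium regulators, -0.45 for 5 channels and exchangers, and -0.57 for 5 partners. All 8 transducin and PDE6 members still passed the filter then. Between the regions, opsin kinases and arrestins were called higher in diencephalon for 6 of 7 genes with all males, beside 35.1% of all genes, and for 3 of the 5 tested without the 2 fish, beside 33.8%. Cyclases and calcium regulators had 2 of 7 called higher and 1 lower with all males. Without the 2 fish, 2 of 6 were called higher and 2 lower. For channels and exchangers 2 were called higher and 2 lower in both settings, of 6 and 5 tested. Partners of transducin and PDE6 had 5 of 6 called higher, and 2 of 5 without the 2 fish, with 0 lower. Of all genes, 6630 of 17536 were called lower with all males and 6685 of 17464 without the 2 fish.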

How the data were processed

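The authors trimmed single-end reads of a strand-marking poly-A kit, aligned them with TopHat2 (2.0.8) to the repeat-masked stickleback genome (the labels name NCBIM37, which was not used here), counted them per gene with HTSeq (0.6.1) without reads falling in several genes, and deposited raw counts. The deposited cpm of the same libraries, which the authors scaled by a total that includes reads outside the listed genes, were used only for 1 alternative of the rod to cone ratios. Columns were assigned by sample title, and 0 columns were left unused. The members and lists were chosen with earlier results of these data known. Named genes are the 8 members, 4 further transducin and PDE6 genes, at most 2 of each other list by mean cpm, and the 3 genes most like gnat1 and gnat2. The marker list of visual pigments is not reported here.

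Counts were fitted in R (4.3.3) with edgeR (4.0.16): genes reaching 1 cpm in 2 or more of a region's 30 libraries (of all 60 for region tests), TMM normalization, treatment within time for each region, or 1 coefficient for each of 12 groups over both regions, and quasi-likelihood tests. The study used a tagwise test, taken here as an alternative beside DESeq2 (1.42.0), RLE, other filters, exact permutation and leaving out each fish. Adjustment was by Benjamini-Hochberg over all genes of the 6 challenge comparisons, of the 3 interaction times, or of a single region or joint test, with a threshold of 0.1. Standard errors are the absolute change over the square root of F. Fitting was tested on simulated data. Males are separate animals. No same-group pair of libraries was a duplicate (smallest chi-square per degree of freedom 12.9 over 120 pairs). Pairing of regions comes from the fish number in the labels, and deviations of a male's 2 regions from their group means correlated at 0.255 to 0.691, each best with its own in 30 of 30. Limits from 3 counts cover counting error only. Figures were drawn with matplotlib (3.10.9).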

Additional observations from a re-analysis of the deposited data

Results flagged for a closer look

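In 96 groups of 5 libraries (8 members in 12 groups), a library lay far from the other 4 in 12 groups, by a gap over the group's range above 0.71 on the log2 cpm scale. About 1 in 20 groups would be marked so by chance, and groups of different members share libraries. Fish 19 (challenged, 120 min) was high in diencephalon for 7 of the 8 members. The gap was 0.751 of the range for gnat1 (234 cpm), 0.922 for gnat2 (140.2 cpm), 0.907 for gnb3b (58.4 cpm), 0.805 for gngt2b (40.0 cpm), 0.865 for pde6a (42.2 cpm), 0.771 for pde6c (37.3 cpm) and 0.734 for pde6h (1 of 2) (153 cpm). Fish 20 (control, 120 min) was high in telencephalon for pde6a, with a gap of 0.779 (5.90 cpm), and for pde6c, with a gap of 0.817 (3.76 cpm). Fish 32 (control, 120 min) was low in diencephalon for gnat2, with a gap of 0.743 (1.02 cpm), and for gngt2b, with a gap of 0.848 (0.0341 cpm, a single read). Fish 5 (control, 30 min) was low in telencephalon for pde6a, with a gap of 0.750 (0.287 cpm).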

How the results depend on the processing

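With all males, the count of members called in challenge comparisons (0 of 8 in each) stayed at 0 under RLE, both other filters, adjustment within a comparison and without each male in turn. Exact permutation, with only 252 arrangements of 5 and 5 males, also called 0, which says nothing about stability at that number. It was 4 at 60 min in diencephalon and 6 in telencephalon with DESeq2, and 2 in telencephalon at 60 min with the likelihood ratio test. Jointly tested members numbered 5 in diencephalon and 5 in telencephalon with the likelihood ratio test, and 2 and 5 with DESeq2. The cause was not tested. Members higher in diencephalon numbered 5, and 1 in control males alone, 3 without fish 19 and 35 (a setting chosen after seeing the data), and 3 to 7 without each male in turn, the lowest without fish 19 and the highest without fish 20. With the fish as a replicate block, 5 were called, pde6g at 3.28, gnat1 at 1.05 and gnat2 at 0.58, and no call changed, nor in the region by challenge tests (0 called). The share of all genes called by region was not counted in the block fit or without each male in turn.

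Without fish 19 and 35 the diencephalic changes at 120 min reversed to -1.17 for gnat1, -0.91 for gnat2, -1.17 for gnb3b, -2.54 for gngt2b, -0.70 for pde6a, -0.34 for pde6c and -2.43 for pde6h (1 of 2), and the regional differences to -0.23 for gnb3b, -0.38 for gngt2b and -0.086 for pde6h (1 of 2). As a mean of log2 cpm, the change was 0.23 for gnat1 at 30 min in diencephalon, and -0.11 for gngt2b and -0.45 for pde6h (1 of 2) at 120 min.

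Without each male in turn, signs turned as follows. In diencephalon at 30 min the changes ran between -0.42 and 0.90 for gnat1, -0.26 and 0.40 for gnat2, -0.24 and 0.74 for gnb3b, -1.41 and 0.45 for gngt2b, -0.10 and 0.50 for pde6a, and -1.44 and 0.27 for pde6h (1 of 2). In diencephalon at 120 min they ran between -1.15 and 3.78 for gnat1, -0.92 and 3.92 for gnat2, -1.18 and 4.13 for gnb3b, -2.56 and 4.28 for gngt2b, -0.70 and 3.18 for pde6a, -0.33 and 2.81 for pde6c, and -2.48 and 4.83 for pde6h (1 of 2), each lowest without fish 19. In telencephalon at 30 min they ran between -0.12 and 0.72 for gnat2, -0.37 and 2.1 for gngt2b, -0.066 and 0.65 for pde6c, and -0.25 and 2.68 for pde6h (1 of 2), and at 120 min between -1.27 and 0.46 for pde6c and -1.53 and 0.89 for pde6g. Regional differences ran between -0.16 and 1.16 for gngt2b and -0.10 and 1.3 for pde6h (1 of 2). All other settings kept each member's sign, and the medians of the rod to cone ratios moved by less than the spread between libraries. Most levels of gnb3b, gngt2b and pde6h (1 of 2) rest on few reads.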
